A study of Homo sapiens with 12 samples.

Results

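The genes described here encode interleukins, chemokines, tumour necrosis factor (TNF) family ligands and the receptors of these proteins, measured in SK-UT-1 cells treated with a bromodomain inhibitor. They were chosen by symbol, as names that start with IL and a digit, CXCL, CCL, TNFSF or TNFRSF, together with LIF, LIFR, OSMR and CSF1. Of the 22784 symbols with values, 120 met this rule, and 7 antisense or divergent noncoding transcripts among them were set aside. The 113 members that remained were 27 interleukins, 35 interleukin receptors and binding proteins, 19 chemokines, 9 TNF ligands, 18 TNF receptors, the 4 genes added by name, and IL4I1, an amino acid oxidase that only shares the start of its name. SK-UT-1 is an established line from a human uterine leiomyosarcoma, a malignant smooth muscle tumour. The cells received the vehicle DMSO, 5 µM JQ1 or 5 µM I-BET 762 for 48 h, and RNA-seq values were analysed for 3 DMSO, 4 JQ1 and 3 I-BET 762 libraries, with DMSO replicate 16 and I-BET 762 replicate 24 not analysed here. JQ1 is a thienotriazolodiazepine and I-BET 762 a benzodiazepine, and both keep bromodomain proteins of the BET family from binding acetylated histones. The design holds 1 cell line, 1 dose and 1 time, and no source says that the libraries of a group came from separate cultures, so the p-values measure the spread between these libraries.

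Interleukins and chemokines are secreted proteins through which cells signal to each other in immunity and repair. Chemokines guide migrating leukocytes through G protein-coupled receptors, the interleukin-6 family (with LIF, IL11 and oncostatin M) signals through gp130, the product of IL6ST, and the interleukin-1 family through receptors that recruit MYD88. TNF ligands bind trimeric receptors that recruit TRAF proteins or, through death domains, caspase-8, and decoy receptors in each family bind a ligand without passing on the full signal. Tumour cells of mesenchymal origin make a part of this repertoire themselves, and many of its genes are induced through NF-κB and AP-1.

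Values are normalized counts, meaning reads on a gene divided by the library's scaling factor, and they are listed in the order of replicates 13 to 15 for DMSO, 17 to 20 for JQ1 and 21 to 23 for I-BET 762. Reads on genes ranged from 35564587 to 39658989 per library, and a count of 0 allowed up to 3 reads, or 2.73 to 3.30 normalized counts, as counting error only. The culture carried smooth muscle markers, since 7 of the 8 markers with values passed the filter below. ACTA2 stood at 6899 to 7326 normalized counts with DMSO, while MYOCD was at most 1.1. MYH11, also on the list of 9 markers, had no values. With each inhibitor, 6 of the 7 were called lower, among them TAGLN at 1565 to 1651 with DMSO, 108 to 143 with JQ1 and 143 to 165 with I-BET 762, and SMTN was not called (0.19 and 0.20). Epithelial markers were expressed too and summed to 469.7 to 530.7 with DMSO, 271 to 336 with JQ1 and 311 to 343 with I-BET 762, with 3 of 3 tested called lower with JQ1 and 2 with I-BET 762. Of the leukocyte markers, PTPRC, LYZ, CD68 and NKG7 had at most 4.01 normalized counts in any library, and CD14 and ITGAM made up nearly all of a summed level of 51.9 to 70.7 with DMSO, 41.02 to 52.7 with JQ1 and 21.7 to 40.1 with I-BET 762. The part of these marker shifts in the results below was not tested. The 4 endothelial markers summed to at most 7.40.

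A gene was tested when it reached a normalized count of 10 in 3 libraries, which 66 of the 113 members did. A change was called when limma gave a Benjamini-Hochberg adjusted p-value under 0.05, over all 14839 symbols tested, and a fold change over 1.5. With JQ1, 40 of the 66 tested members were called, 8 higher and 32 lower, against 36.1% of all tested symbols, of which 13.3% were higher and 22.8% lower. With I-BET 762, 38 were called, 6 higher and 32 lower, against 26.9% of all tested symbols, with 8.96% higher and 17.9% lower. The median log2 fold change of the tested members was −0.68 with JQ1 and −0.73 with I-BET 762, and that of all tested symbols was 0.01 and −0.00. The comparisons with DMSO share their DMSO libraries. Of the 66, 10 reached the filter only in DMSO libraries and so had to be lower with the inhibitors. Among the 53 members with 3 or more treated libraries at the limit, 29 were called with JQ1, 8 higher and 21 lower, and 27 with I-BET 762, 6 higher and 21 lower. The median log2 fold change of these 53 was smaller, at −0.48 with JQ1 and −0.41 with I-BET 762. In bulk RNA, less RNA per cell and fewer cells that express a gene cannot be told apart. The authors' scaling sets the zero of these changes. After rescaling to equal totals the median of all symbols moved to −0.18 with JQ1 and −0.10 with I-BET 762, and the calls over all symbols with JQ1 moved from 1979 higher and 3379 lower to 1222 higher and 4217 lower.

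**Figure D1:**
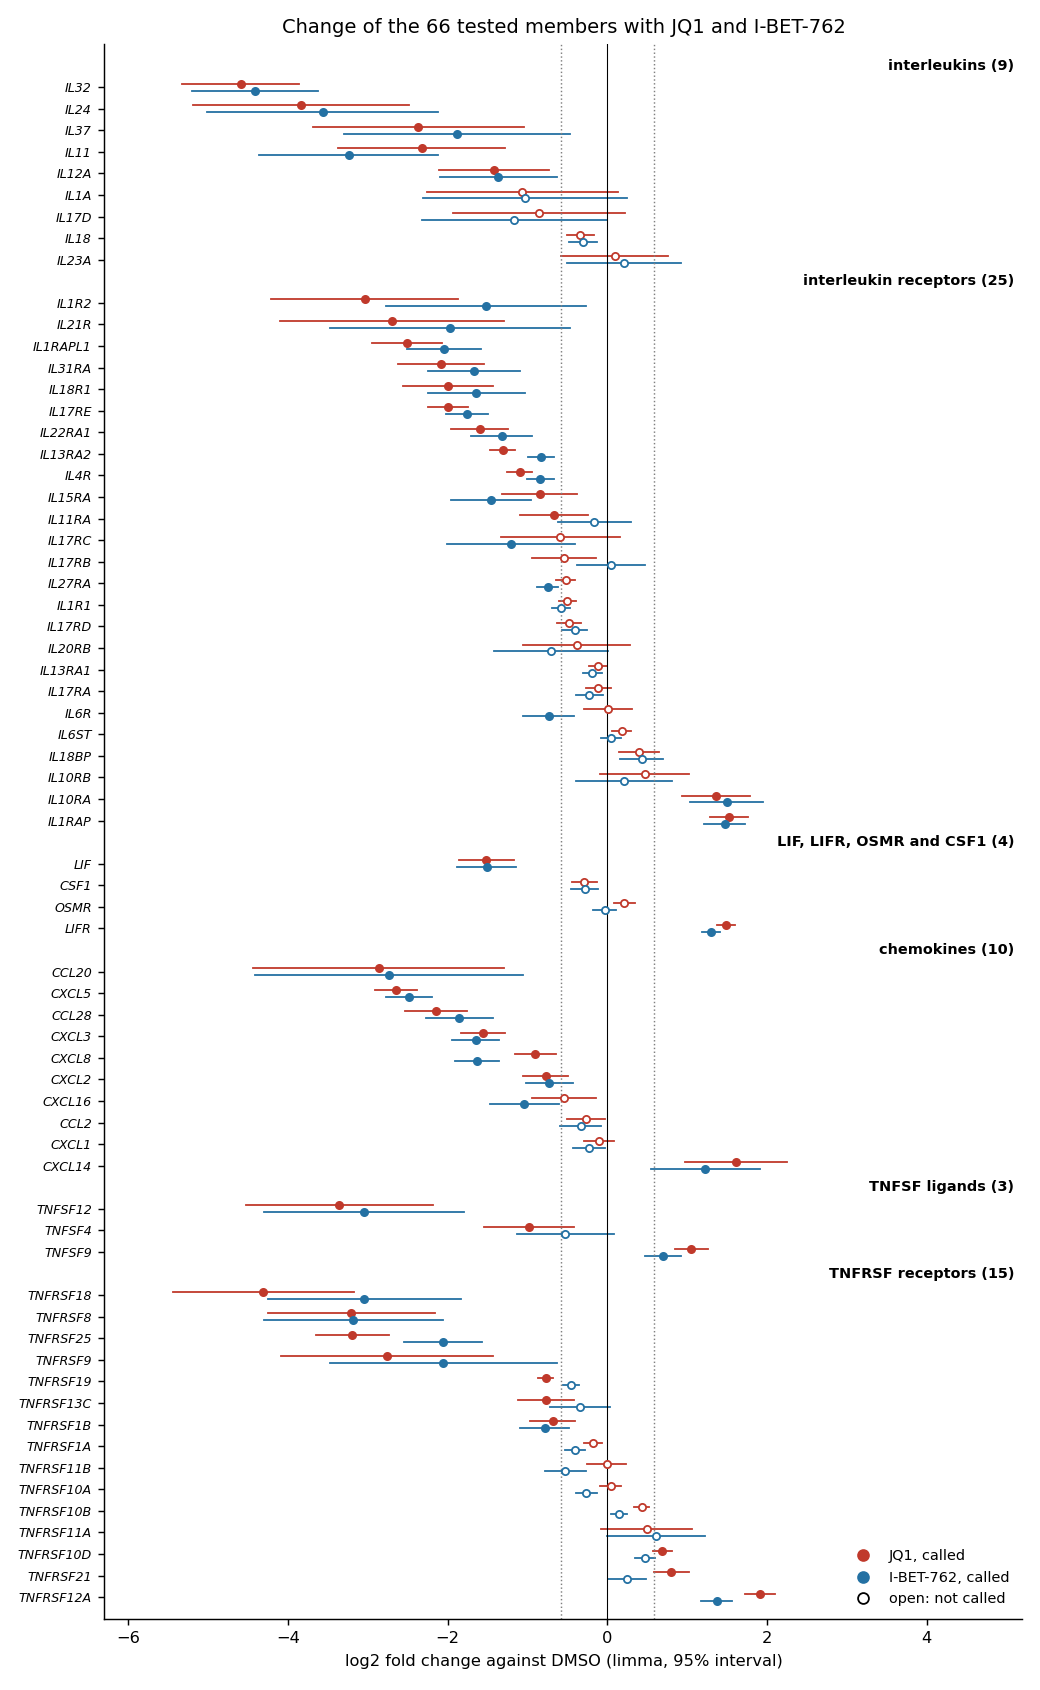
Log2 fold change against DMSO for the 66 tested members, grouped by role with the number tested, with JQ1 in red and I-BET 762 in blue; points are limma estimates, lines their 95% intervals, filled points were called and dotted lines mark 1.5-fold. With JQ1, 32 members lie to the left and 8 to the right of the dotted lines as calls, and the wide intervals belong to members with few reads, for which TNFRSF18, IL24, TNFSF12, IL1R2 and IL21R have fitted changes that depend on the added count of 1.

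Among the interleukins, 9 of 27 were tested, and 5 were lower with each inhibitor, with none higher (55.6% called, against 36.1% of all tested symbols with JQ1 and 26.9% with I-BET 762). Of those 5, IL32, IL11, IL24 and IL37 had no treated library at the filter limit and so could only be lower, which leaves IL12A. IL32, a proinflammatory cytokine without a classical receptor, showed the lowest fitted change. Its normalized counts were 180.1, 151 and 158 with DMSO, 3.30, 9.79, 4.0 and 8.11 with JQ1, and 9.84, 5.01 and 5.91 with I-BET 762. All treated libraries lay far below the DMSO libraries, and the inhibitors overlapped each other. The log2 fold change was −4.59 ± 0.35 (SE, adjusted p = 6.9e-09) with JQ1 and −4.42 ± 0.37 (adjusted p = 5.4e-08) with I-BET 762, which is 24.1-fold and 21.3-fold lower on the scale of the count plus 1. IL32 lies at chr16:3065297-3082192 on the plus strand (ENSG00000008517.19, hg38), and 14.3% of its 75-base exon stretches have an exact copy elsewhere in the genome, so a part of its reads may not be unique.

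The 5 symbols whose log2 values ran closest to those of IL32 over the 10 libraries were UCHL1, a neuronal ubiquitin hydrolase, with a Pearson r of 0.993, HNF4G (0.992), SP110 (0.992), S100A2 (0.991) and the smooth muscle actin gene ACTA2 (0.990). The libraries form a DMSO cluster and a treated cluster, so these values describe the shared step between clusters. The step itself differed in size, since mean normalized counts of ACTA2 went from 7071 with DMSO to 3075 with JQ1 and 3350 with I-BET 762, and those of HNF4G from 213 to 35.9 and 38.9.

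The 150 bases before 1 of the RefSeq starts of IL32 (GRCh38.p14, chr16:3065253-3065402, plus strand) are shown because they hold a pair of NF-κB-type words, and this member had the lowest fitted change. RefSeq lists more than 1 start for IL32, and only this window held the words. Capitals mark the pattern GGNNTTTCC, or GGAAANNCC on the other strand.
IL32: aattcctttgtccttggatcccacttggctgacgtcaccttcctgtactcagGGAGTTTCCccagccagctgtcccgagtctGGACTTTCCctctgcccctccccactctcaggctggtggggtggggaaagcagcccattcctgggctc
The pattern was found in 3.46% of 35116 RefSeq windows of this length and in 20 of the 124 windows of members. Counted by gene, it was in at least 1 window of 4.28% of 27305 symbols and of 19 of the 87 members with an entry. A match describes letters only and shows no binding.

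The other interleukins stood at low counts. IL11, a gp130 cytokine of fibroblasts, gave 32.0, 28.7 and 34.6 with DMSO, 8.79, 7.62, 2.0 and 6.09 with JQ1, and 1.97, 6.02 and 0.98 with I-BET 762. The treated libraries were all below DMSO, with log2 fold changes of −2.33 ± 0.49 (adjusted p = 0.00052) and −3.24 ± 0.53 (adjusted p = 6.6e-05). IL24, a cytokine of the IL-10 family, had 52 reads over the DMSO libraries, 1 over the JQ1 libraries and 2 over the I-BET 762 libraries. Per unit of depth this was 61.7 times as much with DMSO as with JQ1, with an exact 95% counting interval of 10.6 to 2485, and 24.5 times as much as with I-BET 762 (6.45 to 208). As 41.6% of the IL24 exons overlap FCMR on the opposite strand and the strand setting of the counting is not stated, those reads are uncertain.

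IL12A, which encodes a subunit of interleukin-12, changed by −1.42 with JQ1 (adjusted p = 0.00095) and −1.37 with I-BET 762 (adjusted p = 0.0029) on the log2 scale. IL37, an inhibitory member of the interleukin-1 family, changed by −2.37 (adjusted p = 0.0029) and −1.89 (adjusted p = 0.022). Its call with I-BET 762 ended without DMSO replicate 13 (adjusted p = 0.085), without I-BET 762 replicate 22 (0.103) and without I-BET 762 replicate 23 (0.0505). IL18, the interleukin with the highest mean and the ligand of IL18R1, ran from 809 to 979 with DMSO, 690 to 796 with JQ1 and 711 to 783 with I-BET 762. Its treated libraries were below DMSO without overlap, but the log2 changes of −0.34 and −0.31 were under 1.5-fold. IL1A, IL17D and IL23A did not pass the test with either inhibitor. Without JQ1 replicate 20, IL1A passed with JQ1 (−1.40, adjusted p = 0.042), and without JQ1 replicate 18, which changes the pooled spread, IL17D passed with I-BET 762 (−1.16, adjusted p = 0.042).

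LIF, a gp130 cytokine known for its role in implantation and stem cell culture, was at 206, 234 and 228 with DMSO, 63.7, 68.5, 79.0 and 102 with JQ1, and 72.8, 70.2 and 90.6 with I-BET 762. The treated libraries were all below the DMSO libraries and overlapped each other. The log2 fold change was −1.52 ± 0.16 with JQ1 (adjusted p = 4.0e-07) and −1.51 ± 0.17 with I-BET 762 (adjusted p = 1.6e-06). LIF lies at chr22:30240453-30246759 on the minus strand. CSF1, the growth factor of macrophages, stood at 1112 to 1192 with DMSO, 831 to 1063 with JQ1 and 912 to 997 with I-BET 762, and its log2 changes of −0.29 with each inhibitor were under 1.5-fold.

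Chemokines were measured at testable levels for 10 of 19 genes, of which 6 were lower and 1 higher with JQ1, and 7 were lower and 1 higher with I-BET 762. For CCL20, 1 of those lower, the filter itself fixed the direction. Over all tested symbols, 22.8% were lower and 13.3% higher with JQ1, and 17.9% lower and 8.96% higher with I-BET 762, so the 1 of 10 that was higher was near these shares. The CXC chemokines that bind CXCR2 and attract neutrophils lie side by side on chromosome 4, over 357 kb from CXCL8 to CXCL2, and differed in their change. CXCL8 (interleukin-8) was at 512, 639 and 609 with DMSO, 293, 346, 353 and 265 with JQ1, and 219, 168 and 180.1 with I-BET 762. The 3 groups did not overlap, and DMSO was highest and I-BET 762 lowest. The log2 fold change was −0.90 ± 0.12 with JQ1 (adjusted p = 5.7e-06) and −1.63 ± 0.13 with I-BET 762 (adjusted p = 3.0e-08).

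CXCL5 showed a larger change than its neighbours. It was at 409.7, 444 and 507 with DMSO, 74.7, 62.0, 75.03 and 74.0 with JQ1, and 81.7, 72.2 and 86.6 with I-BET 762. Every treated library was far below every DMSO library, and the log2 fold change was −2.65 ± 0.13 (adjusted p = 2.9e-11) and −2.48 ± 0.13 (adjusted p = 3.9e-10). On the opposite strand, 17.3% of its exons overlap an unnamed gene. CXCL3 was at 301, 352 and 358 with DMSO, 125, 107, 131 and 94.3 with JQ1, and 103, 99.3 and 117 with I-BET 762. Its log2 fold changes were −1.56 ± 0.13 and −1.65 ± 0.14 (adjusted p = 2.4e-08 and 5.8e-08).

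CXCL2 fell less, by 0.77 with JQ1 (adjusted p = 6.4e-05) and by 0.73 with I-BET 762 (adjusted p = 0.00031) on the log2 scale. Without I-BET 762 replicate 22 the latter was −0.58, under 1.5-fold. CXCL1, which has the highest level of these genes per kilobase of exon (574 normalized counts with DMSO, 536 with JQ1 and 489 with I-BET 762), was not called. Its libraries were at 721, 826 and 799.9 with DMSO, 758, 691, 825 and 643 with JQ1, and 656, 616 and 726 with I-BET 762, and the groups overlapped. The log2 difference was −0.10 (95% interval −0.29 to 0.08) with JQ1 and −0.23 (−0.43 to −0.03, adjusted p = 0.041) with I-BET 762. CXCL6, between CXCL8 and CXCL1, had at most 1.85 normalized counts in any library.

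The windows of 150 bases before the RefSeq starts of these 5 genes are shown because the genes are neighbours and 3 of the windows are nearly alike, while the changes of the genes were not. They lie at chr4:73740419-73740568 for CXCL8 and chr4:73869243-73869392 for CXCL1, both on the plus strand, and at chr4:73998678-73998827 for CXCL5, chr4:74038690-74038839 for CXCL3 and chr4:74099196-74099345 for CXCL2, on the minus strand (RefSeq, GRCh38.p14). Capitals mark GGNNTTTCC, or GGAAANNCC on the other strand, and TGANTCA, an AP-1-type word that reads the same on both strands. The marked words do not overlap.
CXCL8: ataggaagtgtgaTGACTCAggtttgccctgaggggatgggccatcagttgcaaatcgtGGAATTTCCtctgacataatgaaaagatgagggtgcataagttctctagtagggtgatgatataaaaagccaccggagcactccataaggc
CXCL1: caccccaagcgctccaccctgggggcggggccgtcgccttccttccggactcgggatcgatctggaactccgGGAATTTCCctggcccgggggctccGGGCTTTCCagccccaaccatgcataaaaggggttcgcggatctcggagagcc
CXCL5: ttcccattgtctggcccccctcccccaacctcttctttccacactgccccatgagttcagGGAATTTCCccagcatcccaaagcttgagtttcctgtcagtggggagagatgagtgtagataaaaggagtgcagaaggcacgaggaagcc
CXCL3: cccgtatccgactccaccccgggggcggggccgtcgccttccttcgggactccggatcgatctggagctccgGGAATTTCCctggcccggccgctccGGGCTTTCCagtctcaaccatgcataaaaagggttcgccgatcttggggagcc
CXCL2: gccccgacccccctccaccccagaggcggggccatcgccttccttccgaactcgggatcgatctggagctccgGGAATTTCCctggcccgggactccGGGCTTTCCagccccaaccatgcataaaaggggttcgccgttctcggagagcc
The windows of CXCL1, CXCL2 and CXCL3 were 86.1% to 88.7% identical over their alignments and each held 2 NF-κB-type words, with starts 77 or 78 and 53 bases before the gene start. CXCL5 and CXCL8 each held 1, and CXCL8 also held 1 AP-1-type word, which occurs in 4.17% of all windows and in 16 of the 124 windows of members. CXCL1 and CXCL2, with 88.7% identity, differed in whether they were called. Of the 75-base exon stretches, 5.88% of CXCL2 and 3.45% of CXCL3 have an exact copy elsewhere, so a share of their reads cannot be assigned with certainty.

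**Figure D2:**
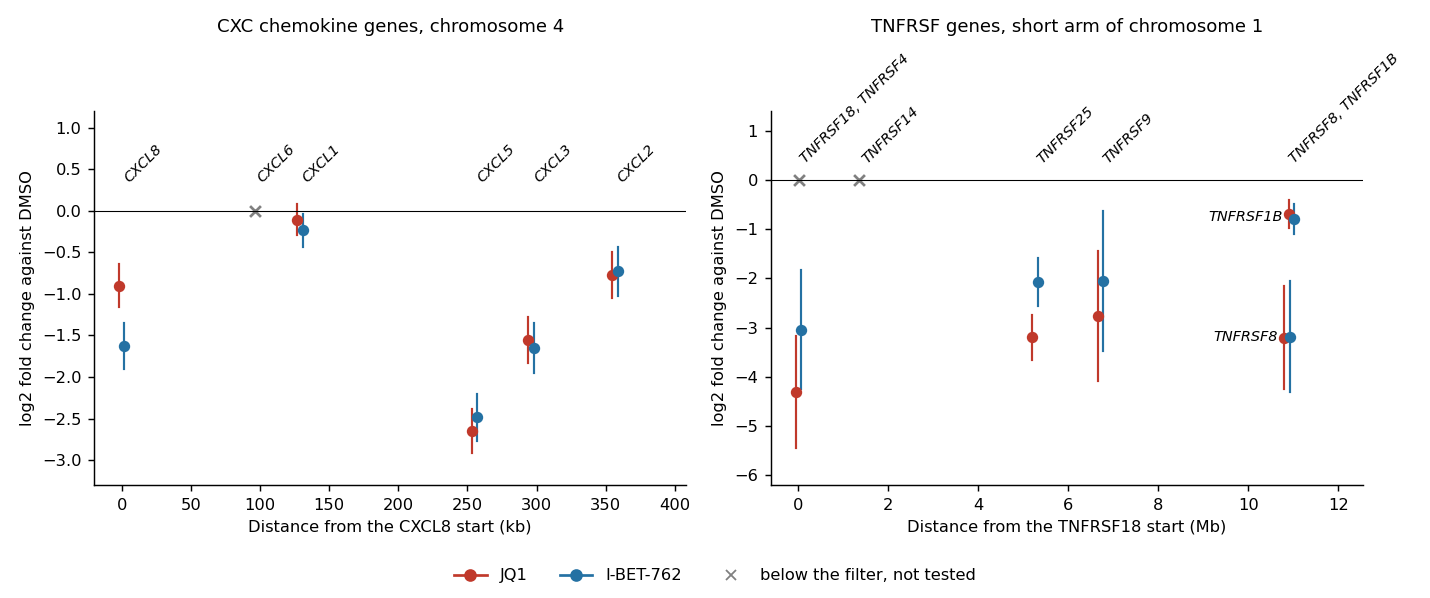
Log2 fold change against DMSO (points, with 95% intervals as lines) by distance of each gene's lower coordinate from that of the first gene, for the CXC chemokine genes of chromosome 4 in kilobases and for the TNF receptor genes of the short arm of chromosome 1 in megabases; grey crosses mark genes below the filter, drawn at 0. CXCL5 lies lowest on the left and CXCL1 closest to 0, and on the right each tested gene lies below 0, with TNFRSF1B closest to it.

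Of the other chemokines, CCL28, an epithelial chemokine that binds CCR10, was at 188, 213 and 198 with DMSO, 30.8, 51.1, 48.0 and 50.7 with JQ1, and 56.1, 46.1 and 62.0 with I-BET 762. All treated libraries were below DMSO, with log2 fold changes of −2.15 ± 0.18 (adjusted p = 3.2e-08) and −1.86 ± 0.20 (adjusted p = 7.2e-07). CCL20, the ligand of CCR6, went from 11.6 to 15.5 with DMSO to at most 6.09 with JQ1 and 3.94 with I-BET 762, and it was called with both. It reached the filter only in DMSO libraries and so could only be lower. CXCL16, a transmembrane chemokine, was called with I-BET 762 (−1.04, adjusted p = 0.00033), and with JQ1 its change of −0.54 was under 1.5-fold, but passed it without any 1 of DMSO replicate 13 (−0.61) and JQ1 replicates 17 (−0.61), 19 (−0.59) and 20 (−0.61). CCL2, the monocyte chemoattractant, was not called, at −0.26 and −0.33.

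CXCL14 was the chemokine that rose. It was at 13.6, 12.0 and 9.10 with DMSO, 35.2, 44.6, 55.0 and 21.3 with JQ1, and 29.5, 23.1 and 32.5 with I-BET 762. The treated libraries were all above DMSO, at low counts, and the log2 fold change was 1.61 ± 0.30 with JQ1 (adjusted p = 0.00016) and 1.23 ± 0.32 with I-BET 762 (adjusted p = 0.0035).

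Of the 9 TNF ligands, 3 were tested. TNFSF9 (4-1BB ligand) rose and had 127, 145 and 147 normalized counts with DMSO, 311, 277, 310.1 and 267 with JQ1, and 222, 229.6 and 229.4 with I-BET 762. Each group was separate from the others, with JQ1 highest, and the log2 fold change was 1.05 ± 0.10 (adjusted p = 8.3e-08) and 0.70 ± 0.10 (adjusted p = 2.9e-05). TNFSF12 (TWEAK) had 80 reads over the DMSO libraries and 7 over the JQ1 libraries, so that the DMSO level was 13.6 times that with JQ1, with an exact 95% counting interval of 6.29 to 34.8. Its normalized counts were 28.1, 27.7 and 19.1 with DMSO and 1.97, 1.0 and 3.94 with I-BET 762 (adjusted p = 0.00032), and 12.1% of its exons are shared with a readthrough transcript into TNFSF13. As TNFSF12 reached the filter only in DMSO libraries, it could only be lower. TNFSF4 (OX40 ligand) fell with JQ1 (−0.98, adjusted p = 0.0037) and was not called with I-BET 762 (−0.53, adjusted p = 0.12). TNFSF10 (TRAIL) had at most 7.40 normalized counts with DMSO and 0.98 with an inhibitor, and was not tested.

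**Figure D3:**
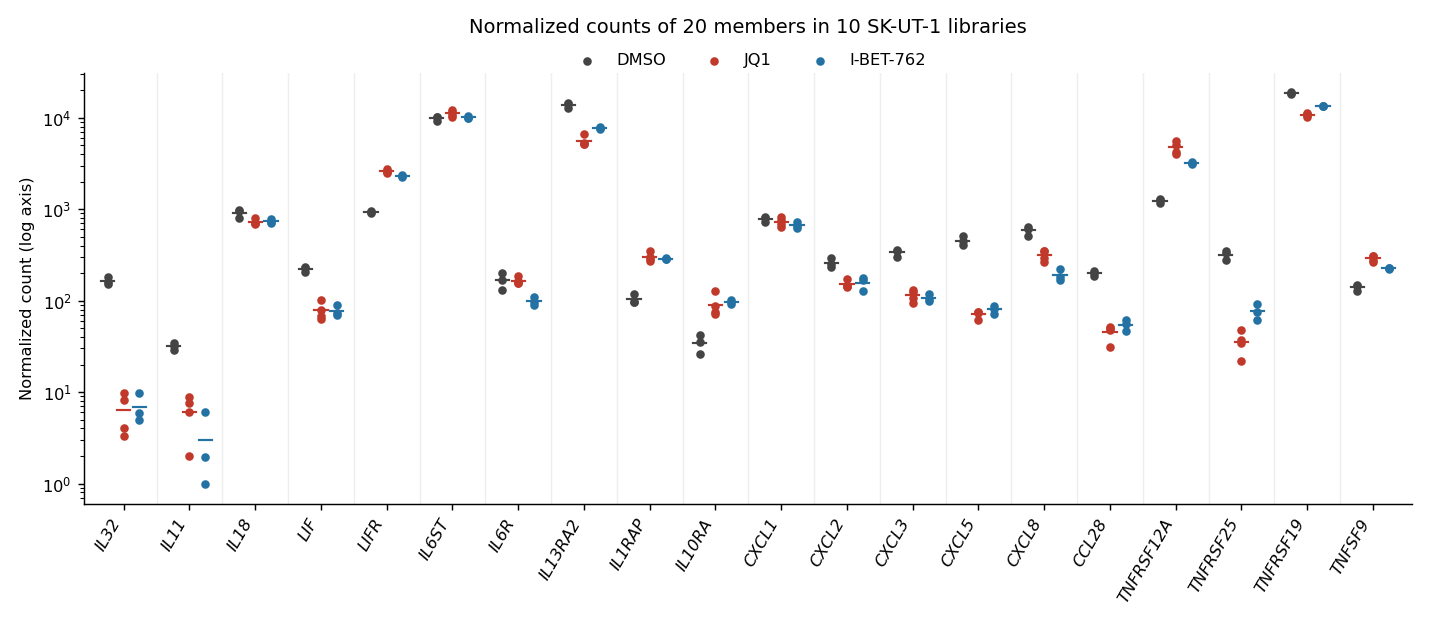
Normalized counts (log axis) of 20 members in each library, with points for libraries, short lines for group means, and DMSO in grey, JQ1 in red and I-BET 762 in blue. IL32, IL11, LIF, CXCL3, CXCL5 and TNFRSF25 lie lower with each inhibitor, LIFR, IL1RAP, IL10RA, TNFRSF12A and TNFSF9 higher, while CXCL1 and IL6ST stay near their DMSO levels.

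The receptors of the gp130 family changed in different ways. LIFR, the receptor chain of LIF, was at 902, 947 and 942 with DMSO, 2644, 2773, 2555 and 2473 with JQ1, and 2286, 2353 and 2235 with I-BET 762. Both treated groups lay above DMSO, and JQ1 above I-BET 762. The log2 fold change was 1.49 ± 0.05 with JQ1 (adjusted p = 8.6e-13) and 1.30 ± 0.06 with I-BET 762 (adjusted p = 2.9e-11), that is 2.80-fold and 2.46-fold higher. LIFR lies at chr5:38474668-38608354 on the minus strand. OSMR, the oncostatin M receptor, lies at chr5:38845858-38945596 on the plus strand and was not called (0.21 and −0.04).

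IL6ST (gp130), the chain these receptors share, had 9200, 10177 and 10162 normalized counts with DMSO, 10303 to 12080.3 with JQ1, and 9952 to 10400 with I-BET 762. Its log2 differences of 0.18 (95% interval 0.06 to 0.30) and 0.04 (−0.09 to 0.17) were not called. IL6R, the ligand-binding chain for interleukin-6, was at 168, 132 and 199 with DMSO, 163, 158, 156 and 186 with JQ1, and 89.5, 96.2 and 110.3 with I-BET 762. The JQ1 libraries fell inside the DMSO range and the I-BET 762 libraries below it, with log2 differences of 0.01 (adjusted p = 0.96) and −0.73 (adjusted p = 0.00052). IL6 itself had at most 2.91 normalized counts in any library.

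IL11RA, the receptor chain of IL11, was lower with JQ1 (−0.67, adjusted p = 0.0071) and was not called with I-BET 762 (−0.16, adjusted p = 0.53), and another gene on the same strand covers 32.5% of its exons. Without DMSO replicate 14 the change with JQ1 was −0.47 and its call ended. IL31RA, a gp130-like receptor, ends at position 55922854 of chromosome 5, and IL6ST spans 55935095 to 55995022 on the minus strand. IL31RA went from 43.7 to 49.0 with DMSO to 8.70 to 13.2 with JQ1 and 12.0 to 14.8 with I-BET 762. Its log2 changes were −2.09 and −1.67 (adjusted p = 1.9e-06 and 6.7e-05). IL27RA, the interleukin-27 receptor, was called with I-BET 762 (−0.75, adjusted p = 2.9e-08) and had a change of −0.52 with JQ1, under 1.5-fold.

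In the interleukin-1 receptor family, the accessory chain rose and other members fell. IL1RAP, the coreceptor that interleukin-1 and interleukin-33 receptors need, had 96.9, 119 and 95.6 normalized counts with DMSO, 299, 350.3, 268 and 288 with JQ1, and 282, 294 and 287 with I-BET 762. Each treated library was above every DMSO library, and the log2 fold change was 1.53 ± 0.11 (adjusted p = 4.9e-09) and 1.47 ± 0.12 (adjusted p = 3.9e-08). IL1R1, the signalling receptor, was at 3140 to 3242 with DMSO, 2101 to 2335 with JQ1 and 2073 to 2208 with I-BET 762, and its log2 changes of −0.50 and −0.58 stayed under 1.5-fold, though the latter passed it without DMSO replicate 13 (−0.59) or 15 (−0.59) or I-BET 762 replicate 22 (−0.61). After rescaling to equal totals IL1R1 was called with JQ1 (−0.69) and with I-BET 762 (−0.68). IL1R2, the decoy receptor, had 39 reads with DMSO and 3 with JQ1, a ratio of 15.4 with an exact 95% counting interval of 4.91 to 78.1. It passed the filter only in DMSO libraries and so could only be lower with an inhibitor. With I-BET 762 its normalized counts were 2.95, 3.01 and 4.92, and that call (adjusted p = 0.034) ended without any 1 of DMSO replicates 13, 14 and 15 (adjusted p from 0.070 to 0.099) and without I-BET 762 replicate 21 (0.088) or 22 (0.086).

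IL18R1, the receptor of IL18, was at 113, 95.2 and 103 with DMSO, 37.4, 22.8, 33.0 and 14.2 with JQ1, and 37.4, 28.1 and 32.5 with I-BET 762. The treated libraries were below DMSO and overlapped each other, with log2 fold changes of −1.99 ± 0.27 (adjusted p = 5.5e-06) and −1.64 ± 0.29 (adjusted p = 0.00013). Its accessory chain IL18RAP had at most 1.82 normalized counts, and IL18BP, the soluble decoy of IL18, was not called (0.40 and 0.43, and with I-BET 762 called at 0.59 without DMSO replicate 13), with 17.6% of its exons overlapping NUMA1 on the opposite strand. IL1RAPL1, a synaptic member of the family on the X chromosome, went from 171 to 199.7 with DMSO to 26.1 to 43.0 with JQ1 and 36.4 to 60.02 with I-BET 762 (log2 −2.51 and −2.05, adjusted p = 1.9e-08 and 8.7e-07).

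The receptors of interleukin-4 and interleukin-13 held the largest level among the members per kilobase of exon. IL13RA2, a receptor with a short cytoplasmic tail that is regarded as a decoy for interleukin-13, had 8493 normalized counts per kilobase with DMSO, 3432 with JQ1 and 4776 with I-BET 762. Its normalized counts were 12867, 14087 and 14474 with DMSO, 5218, 6569, 5196 and 5337 with JQ1, and 7783, 8011 and 7500.2 with I-BET 762. The groups did not overlap, with JQ1 lowest, and the log2 fold change was −1.31 ± 0.07 (adjusted p = 1.6e-10) and −0.83 ± 0.08 (adjusted p = 1.7e-07). IL4R, the chain that signals for both ligands, was at 780.3 to 845 with DMSO, 363 to 421 with JQ1 and 438 to 477 with I-BET 762, with log2 fold changes of −1.10 and −0.84 (adjusted p = 1.9e-09 and 2.0e-07). IL13RA1, its partner in the type II receptor, was not called (−0.12 and −0.19).

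Among the interleukin-17 receptors, IL17RE, which binds interleukin-17C, was at 322, 335 and 343 with DMSO, 91.2, 75.1, 78.0 and 88.2 with JQ1, and 108, 89.2 and 96.5 with I-BET 762. The treated libraries were far below DMSO, and the log2 fold change was −1.99 ± 0.12 (adjusted p = 4.1e-10) and −1.76 ± 0.13 (adjusted p = 9.7e-09). IL17RC begins at position 9917074 of chromosome 3, just after the end of IL17RE at 9916402. IL17RC was at 145, 130.4 and 147 with DMSO, 164, 50.0, 166 and 54.8 with JQ1, and 47.2, 62.2 and 74.8 with I-BET 762. The JQ1 replicates 17 and 19 were above every DMSO library and replicates 18 and 20 below every one, so that no call was made with JQ1 (−0.59, adjusted p = 0.15), and one was without replicate 17 (−0.86, adjusted p = 0.031) or 19 (−0.87, adjusted p = 0.029). With I-BET 762 the change of −1.21 was called (adjusted p = 0.011), and it was not without I-BET 762 replicate 21 (−1.03, adjusted p = 0.054). An unnamed gene on the same strand covers 46.5% of the IL17RC exons, so its counts are uncertain. IL17RA, the shared chain, was not called (−0.11 and −0.23), and the ligands IL17C and IL17F had at most 2.01 normalized counts.

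Of the other interleukin receptors, IL10RA, the ligand-binding chain for interleukin-10, rose from 34.9, 41.6 and 26.4 with DMSO to 126, 75.1, 72.0 and 88.2 with JQ1 and 102, 96.2 and 92.5 with I-BET 762. Each treated library was above DMSO, and the change was 2.57-fold (adjusted p = 1.7e-05) and 2.82-fold (adjusted p = 2.0e-05). IL10RB, the second chain, was not called (0.47 and 0.21), except with JQ1 without JQ1 replicate 18 (0.73, adjusted p = 0.0063). IL22RA1, which pairs with IL10RB for interleukin-22, fell by 1.60 (adjusted p = 3.7e-07) and by 1.33 (adjusted p = 1.1e-05) on the log2 scale, and IL15RA, which presents interleukin-15, fell by 0.85 (adjusted p = 0.0026) and by 1.46 (adjusted p = 6.0e-05).

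IL21R, a receptor of lymphocytes, had 43 reads with DMSO and 8 with I-BET 762, a ratio of 5.07 with an exact 95% counting interval of 2.36 to 12.5. With I-BET 762 its call (adjusted p = 0.024) ended without DMSO replicate 13 (0.065), DMSO replicate 14 (0.073) or I-BET 762 replicate 22 (0.066). With JQ1 it had 0, 6.53, 0 and 2.03 normalized counts, against 14.5, 15.7 and 10.01 with DMSO (adjusted p = 0.0017), and 23.3% of its exons overlap an antisense transcript. In all, 25 of 35 interleukin receptors were tested, with 2 higher and 11 lower with JQ1 and 2 higher and 13 lower with I-BET 762. That is 52% and 60% called, against 36.1% and 26.9% of all tested symbols, while the 2 higher were no larger a share than the 13.3% and 8.96% over all symbols. IL1R2 and IL21R, 2 of those lower, had no treated library at the filter limit and so could only be lower.

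Among the TNF receptors, 15 of 18 were tested, with 3 higher and 7 lower with JQ1 and 1 higher and 5 lower with I-BET 762. That is 66.7% and 40.0% called, against 36.1% and 26.9% of all tested symbols, and the 1 higher with I-BET 762 was a smaller share than the 8.96% over all symbols. TNFRSF12A (Fn14), the receptor of TNFSF12, was at 1180, 1268 and 1286 with DMSO, 5597, 4242, 5081 and 4026 with JQ1, and 3302, 3215 and 3122 with I-BET 762. The groups did not overlap, with JQ1 highest. The log2 fold change was 1.92 ± 0.09 with JQ1 (adjusted p = 2.0e-11) and 1.37 ± 0.09 with I-BET 762 (adjusted p = 5.8e-09), that is 3.77-fold and 2.58-fold. TNFRSF12A lies on the plus strand of chromosome 16 and starts 46.9 kb before the start of IL32, which changed in the opposite direction.

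The TNF receptor genes on the short arm of chromosome 1 spread over 11 Mb, and the 5 tested were called lower with each inhibitor. Over all tested symbols, 22.8% were lower with JQ1 and 17.9% with I-BET 762. For TNFRSF18 and TNFRSF8 the filter itself fixed that direction, since no treated library reached the limit, and for TNFRSF9 only 1 did. That leaves TNFRSF25 and TNFRSF1B, so the count says little of the region. TNFRSF25 (DR3), a death-domain receptor of lymphocytes, was at 349, 279 and 329 with DMSO, 34.1, 21.8, 37.0 and 47.7 with JQ1, and 91.5, 75.2 and 62.0 with I-BET 762. The groups did not overlap, with JQ1 lowest, and the log2 fold change was −3.19 ± 0.21 (adjusted p = 1.8e-09) and −2.06 ± 0.23 (adjusted p = 1.3e-06). TNFRSF8 (CD30) went from 41.6 to 54.2 with DMSO to at most 9.0 with JQ1 and 1.97 to 7.02 with I-BET 762, with adjusted p-values of 2.4e-05 and 7.9e-05.

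TNFRSF18 (GITR) had 73 reads with DMSO, 1 with JQ1 and 6 with I-BET 762. The DMSO level was 86.7 times that with JQ1 (exact 95% counting interval 15.1 to 3470) and 11.5 times that with I-BET 762 (5.02 to 32.3). TNFRSF9 (4-1BB), the receptor of TNFSF9, was at 34.9, 32.4 and 30.9 with DMSO, 7.69, 7.62, 0 and 7.10 with JQ1, and 4.92, 12.0 and 5.91 with I-BET 762 (adjusted p = 0.00091 and 0.014). Without I-BET 762 replicate 21 the latter was 0.056. TNFRSF1B (TNFR2) fell by 0.69 and by 0.78 on the log2 scale (adjusted p = 0.00027 and 0.00022), and TNFRSF4 (OX40) and TNFRSF14 were too low to test.

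The receptors of TRAIL lie together on chromosome 8. TNFRSF10B (DR5), a death receptor, was at 3678 to 3823 with DMSO, 4829 to 5285 with JQ1 and 4127 to 4210.5 with I-BET 762. The groups did not overlap, but the log2 changes of 0.43 and 0.15 were under 1.5-fold. TNFRSF10D, a decoy receptor, was at 1457 to 1527 with DMSO, 2301 to 2573 with JQ1 and 1952 to 2147 with I-BET 762, and was called with JQ1 (0.69, adjusted p = 1.2e-08) and not with I-BET 762 (0.47). After rescaling to equal totals its change with JQ1 was 0.51, under 1.5-fold. TNFRSF10A (DR4) was not called (0.04 and −0.26), and 16.7% of its exons overlap transcripts on the opposite strand.

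TNFRSF19 (TROY), an orphan receptor known from hair follicle and nervous system, stood at 18197, 18472 and 18910.4 with DMSO, 10306 to 11219.6 with JQ1, and 13441 to 13593 with I-BET 762. The groups did not overlap, and the log2 fold change was −0.77 ± 0.04 (adjusted p = 2.3e-10, called) and −0.45 ± 0.05 (adjusted p = 5.4e-07, under 1.5-fold). TNFRSF21 (DR6) rose with JQ1 (0.80, adjusted p = 3.8e-06) and was not called with I-BET 762 (0.25). TNFRSF13C, the BAFF receptor, fell with JQ1 (−0.77, adjusted p = 0.00064) and was not called with I-BET 762 (−0.34). TNFRSF1A, the main TNF receptor, TNFRSF11A (RANK) and TNFRSF11B (osteoprotegerin) were not called with either inhibitor. TNFRSF11A was called higher without DMSO replicate 14 (0.77 and 0.88), and TNFRSF11B lower with I-BET 762 without DMSO replicate 15 (−0.63) or I-BET 762 replicate 23 (−0.60). After rescaling to equal totals TNFRSF11B was called lower with I-BET 762 (−0.62).

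Genes that act with these ligands and receptors were taken as 4 lists of 83 genes, of which 42 were tested. With JQ1, 7 were higher and 13 lower, and with I-BET 762, 4 were higher and 11 lower. That is 47.6% and 35.7% called, against 36.1% and 26.9% of all tested symbols. In the interleukin-1 and Toll-type list, where all 11 were tested, the adaptor MYD88 and the kinase IRAK1 were lower and IRAK2 higher with each inhibitor. These 3 are 27.3% of the list, below the 36.1% of all symbols with JQ1 and near the 26.9% with I-BET 762, so the count says nothing particular of the list. IRAK1 went from 3454 to 3782 with DMSO to 1121 to 1239 with JQ1 and 1180.02 to 1315 with I-BET 762. In the list of other TNF family members and adaptors, 20 of 28 were tested, with 3 higher and 7 lower with JQ1 and 2 higher and 4 lower with I-BET 762. That is 50.0% called with JQ1, and 30.0% with I-BET 762, near the 26.9% of all symbols.

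Among those TNF family genes, the receptor gene NGFR, which encodes p75, was at 34.9 to 43.5 with DMSO, 379 to 466 with JQ1 and 205 to 226 with I-BET 762 (log2 3.37 and 2.40, adjusted p = 5.9e-13 and 1.9e-10). LTBR, the lymphotoxin beta receptor, went from 22.2 to 29.1 with DMSO to at most 2.18 with JQ1 and 6.89 with I-BET 762. It passed the filter only in DMSO libraries, so for LTBR too the direction was fixed. The death pathway genes CASP8 and RIPK1 changed in opposite directions, CASP8 by −1.47 and −1.15 and RIPK1 by 1.1 and 0.88 on the log2 scale, and each was called with both inhibitors. Of the chemokine receptor list, 4 of 28 genes were tested, and CCR10, which binds CCL28, fell by 1.43 and by 1.24, and CCRL2 fell by 0.75 and by 1.28. The other two went the other way, with CCR4 at 1.84 and 1.54, called with both inhibitors, and CXCR4 at 1.52 with JQ1 (called) and 0.54 with I-BET 762 (not called). In the gp130 list, 7 of 16 were tested, and CNTFR, a receptor chain for ciliary neurotrophic factor, was lower with each inhibitor (−1.20 and −1.47). LEPR, the leptin receptor, was called higher with JQ1 (0.96) and was not called with I-BET 762 (0.53). In all, 1 was higher and 2 lower with JQ1 and 3 were lower with I-BET 762, which is 42.9% of the tested in each case, against 36.1% and 26.9% of all symbols. Most chemokine receptors, CXCR2 among them, were not tested.

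JQ1 and I-BET 762 were compared with each other at the same dose and time for all 66 tested members. Adjusted over all symbols, 18 members had an adjusted p-value under 0.05, and 4 of them were also over 1.5-fold, against 5.31% of all tested symbols. CXCL8 and IL6R were higher with JQ1, against 1.73% of all symbols, and TNFRSF25 and IL17RB were lower, against 3.59%. For CXCL8 the log2 difference was 0.73 (95% interval 0.47 to 0.98, adjusted p = 0.00045), and for IL6R it was 0.74 (0.44 to 1.04, adjusted p = 0.0012). For TNFRSF25 it was −1.13 (−1.59 to −0.67, adjusted p = 0.0013).

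IL17RB, a chain of the interleukin-25 receptor, was at 65.9, 98.9 and 68.3 with DMSO, 63.7, 46.8, 42.0 and 58.8 with JQ1, and 77.7, 74.2 and 84.7 with I-BET 762. The JQ1 libraries were all below the I-BET 762 libraries, and the difference of −0.59 (−0.98 to −0.19, adjusted p = 0.030) was just over 1.5-fold. It was not called without JQ1 replicate 18 (−0.54, under 1.5-fold), JQ1 replicate 19 (−0.48, adjusted p = 0.080), or I-BET 762 replicates 21 (0.080), 22 (0.061) or 23 (0.11), and is the least firm of the 4. The count of called members went from 4 to 7 without JQ1 replicate 18 and to 7 without JQ1 replicate 20.

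The other 14 members past the p-value differed by less than 1.5-fold. TNFRSF21, TNFRSF12A and TNFRSF11B were higher with JQ1, by 0.55 (0.33 to 0.77), 0.55 (0.36 to 0.73) and 0.52 (0.28 to 0.76), and IL13RA2 and TNFRSF19 were lower with JQ1, by −0.48 (−0.64 to −0.33) and −0.32 (−0.41 to −0.23). TNFRSF12A passed 1.5-fold without JQ1 replicate 18 (0.60) or 20 (0.62), TNFRSF21 without JQ1 replicate 17 (0.60), and TNFRSF11B without I-BET 762 replicate 23 (0.60). Members not past the p-value here also gained calls under alternatives. With limma-voom on recovered reads, IL1R2 (−1.965, adjusted p = 0.022) and TNFRSF18 (−1.76, adjusted p = 0.038) were called lower with JQ1, both from few reads. IL1R2 was also called after rescaling to equal totals (−1.56, limma adjusted p = 0.033). For LIF the difference was −0.00 (−0.35 to 0.34), for CXCL5 −0.16 (−0.43 to 0.10), for IL1RAP 0.06 (−0.18 to 0.30) and for CXCL3 0.09 (−0.18 to 0.37), so that for these genes the interval lies within 1.5-fold either way. This held for 28 of the 66 members. For IL32 the interval of −0.91 to 0.56 and for IL11 that of −0.13 to 1.96 reach beyond 1.5-fold. A difference of that size is therefore not excluded for these 2 genes.

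**Figure D4:**
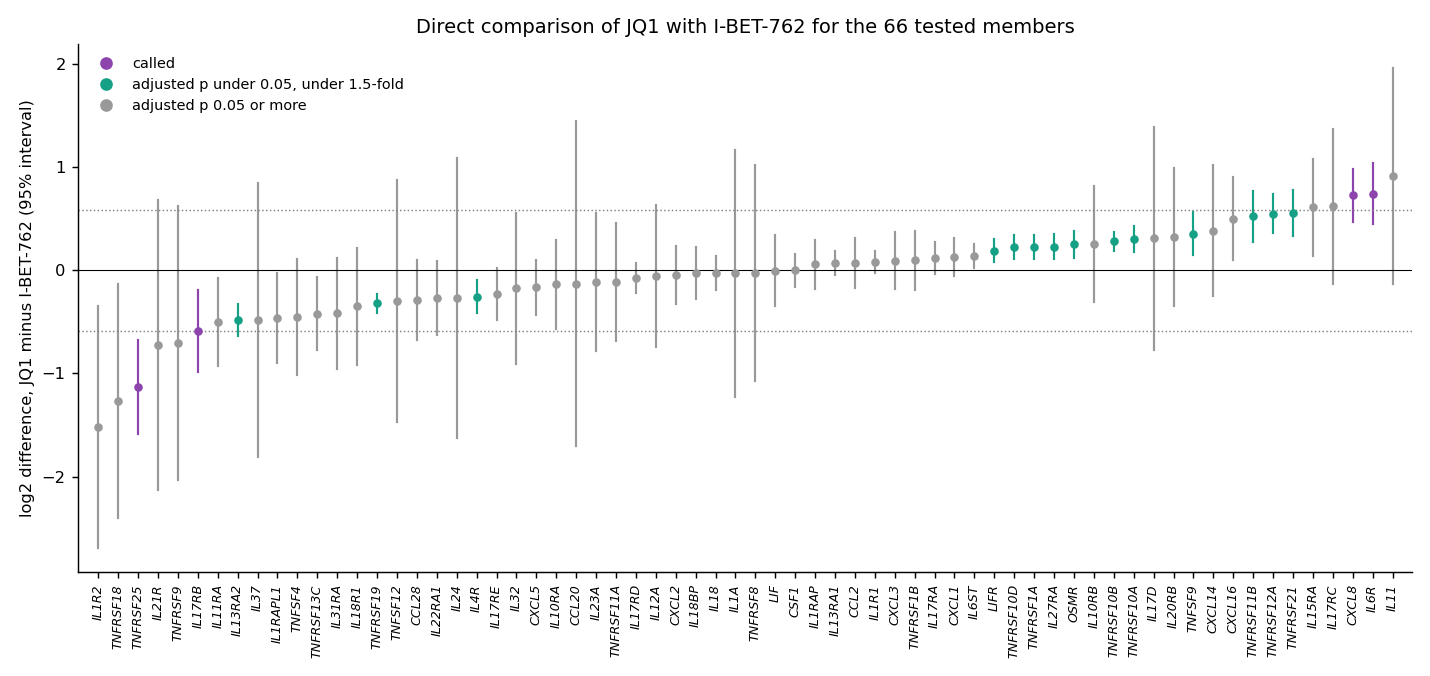
Log2 difference of JQ1 minus I-BET 762 for the 66 tested members in order of size, with 95% intervals; purple marks the 4 called members, green the 14 with an adjusted p-value under 0.05 and less than 1.5-fold, grey the others, and dotted lines mark 1.5-fold. TNFRSF25 and IL17RB lie below 0 and CXCL8 and IL6R above it among the called, and the widest intervals belong to members with few reads, such as CCL20 and IL21R.

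The 47 members below the filter had few reads. For 27 of them no library had more than 3 reads, and the highest value of any was 15.5, for IL34, a ligand of the CSF1 receptor, in a DMSO library. They held 18 of 27 interleukins, among them IL6, IL1B, IL7, IL15 and IL33, 10 of 35 interleukin receptors, 9 of 19 chemokines, among them CXCL9, CXCL10, CXCL11 and CXCL12, and 6 of 9 TNF ligands. IL1B had at most 7.75 normalized counts with DMSO and 2.18 with an inhibitor. When all symbols above 0 were fitted without the filter, calls were made for 47 of the 113 members in JQ1 and 45 in I-BET 762 libraries, against 40 and 38 of the 66 here. Over its 22784 symbols, the unfiltered fit made 6256 calls in JQ1 and 4491 in I-BET 762 libraries.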

How the data were processed

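RNA from SK-UT-1 cells was sequenced on a NovaSeq instrument. Per the paper's methods and the submitters' processing notes, the authors checked reads with FastQC 0.73, trimmed them with Trimmomatic, aligned them to hg38 with HISAT2 2.2.1, counted them with featureCounts 2.0.3 and normalized with DESeq2, leaving outlier samples out. Each deposited value is thus a normalized count, to which 1 was added, on a log2 scale. Undoing the log2 gave whole multiples of 1 step for 99.68% to 99.73% of values (tolerance 0.1 read), which gave reads and depths. Whether counting used strand is not given in the sources used here.

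Symbols with at least 10 normalized counts in 3 libraries were fitted on the deposited log2 scale with limma 3.58.1 in R 4.3.3, in 1 linear model over all 10 libraries with empirical Bayes moderation and an intensity trend, and Benjamini-Hochberg adjustment over all 14839 symbols. Log2 fold changes therefore understate those of low genes. Where every library of a treated group had at most 3 reads, summed reads were compared by depth with exact 95% counting intervals. The code was tested on simulated data with 200 changed genes. Gene models were those of Gencode V44 on GRCh38, and promoter windows were RefSeq's, searched over 150 bases.

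Groups came from the treatment label. The members and lists were chosen with earlier results of these data known. Named first were IL32, up to 20 members called alike with both inhibitors, those called between inhibitors, the 2 highest per role and ligand or receptor partners. Further members in the text were picked with their values known. Alternatives were pseudocounts of 0.5 and 5, other filters, scalings and fold thresholds, no trend, the compared groups alone, limma-voom on recovered reads, and leaving out each library. Tables were made in Python 3.11.15 (pandas 2.3.3, numpy 2.4.6, scipy 1.17.1).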

Additional observations from a re-analysis of the deposited data

Results flagged for a closer look

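In 11 of the 66 tested members, 1 of the 4 JQ1 libraries stood apart from the rest by Dixon's 95% criterion. Chance meets it in about 1 of 20 independent groups of normal values. The members share the same 4 libraries and some have few reads, so their count cannot be set against that rate. The DMSO and I-BET 762 groups, with 3 libraries each, were not screened. JQ1 replicate 18 was the library in 6 of them, with the highest JQ1 value for IL13RA2 (6569 normalized counts) and IL18 (796.4) and the lowest for CXCL16 (71.81), CXCL5 (62.02), IL17RA (1164) and IL23A (9.792). JQ1 replicate 17 was the lowest for CCL28 (30.77) and the highest for CXCL2 (171.4). The remaining 3 rest on few reads. IL24 and TNFRSF18 were each at 1.014 in JQ1 replicate 20 and at 0 in the other JQ1 libraries, and TNFRSF9 was at 0 in JQ1 replicate 19. Without JQ1 replicate 18, 41 members were called with JQ1 against 40 with it.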

How the results depend on the processing

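Over the tested members and the 3 comparisons, 3672 values under single alternatives were computed. Of these, 3587 kept their direction and their side of the thresholds, 26 lost a call, 59 gained one and 0 reversed. The counts of members called with JQ1 (40) and I-BET 762 (38) became 17 and 18 where the fit kept only symbols averaging 100 normalized counts or more, which left 36 members to test. Over the 11072 symbols kept there, 3359 calls were made in JQ1 and 2338 in I-BET 762 libraries. The count between the inhibitors (4) ran from 3 to 7 when 1 library was left out, and was 18 without a fold threshold and 1 at 2-fold. For the genes that act with these families, the counts with JQ1 (20), I-BET 762 (15) and between the inhibitors (2) became 13 and 9 at a mean of at least 100 for the comparisons with DMSO, 34, 32 and 18 without a fold threshold, and 12, 9 and 0 at 2-fold. The mean filter left 31 of these genes to test. Shares over all symbols at the other fold thresholds are not given here. At a pseudocount of 0.5 the calls of IL1R2 and IL21R with I-BET 762 ended, as did that of IL17RC without the trend. For members with a few reads per library, the counting intervals given with their ratios show what depth limits. No paired analysis was possible because the replicate numbers of the groups all differ.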

Other observations

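Of the 7 noncoding transcripts that met the name rule and were set aside, 2 passed the filter. TNFRSF10A-DT, a divergent transcript next to TNFRSF10A, was at 140.4, 155 and 157 normalized counts with DMSO, 122, 66.4, 97.0 and 97.4 with JQ1, and 121, 129 and 105 with I-BET 762. All treated libraries were below DMSO, and limma's log2 fold change was −0.68 ± 0.17 (Benjamini-Hochberg adjusted p = 0.0018) with JQ1 and −0.35 ± 0.18 (adjusted p = 0.10) with I-BET 762. IL6ST-DT was at 13.7 to 30.0 with DMSO, 25.01 to 32.5 with JQ1 and 19.7 to 35.4 with I-BET 762, with overlapping groups.

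CSF2RA, the GM-CSF receptor alpha chain and one of the gp130 and class I cytokine partners, varied widely within each group. Its normalized counts were 1.94, 1.85 and 10.9 with DMSO, 6.59, 52.2, 36.0 and 3.04 with JQ1, and 4.92, 4.01 and 85.6 with I-BET 762.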
